A study of Caenorhabditis elegans with 24 samples.

Results

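The 10 genes described here regulate germline sex determination in *Caenorhabditis elegans*, the choice of a germ cell between sperm and oocyte. They are *fog-1*, *fog-2*, *fog-3*, *tra-2*, *fem-1*, *fem-3*, *gld-1*, *nos-3*, *fbf-1* and *fbf-2*, taken by gene name from a count table of 46926 genes. RNA was sequenced from pellets of whole wild-type worms (N2) grown at 20 degrees on OP50 bacteria, in 24 libraries. Worms of the hypoxia groups had spent 16 hours at 0.1% oxygen, beginning as L4 larvae, and those of the normoxia groups the same time in normal air. Both treatments were repeated for 4 generations in a row, numbered here as exposures 1 to 4, with eggs of the treated worms founding the next generation. Each of the 8 groups had 3 replicate libraries, each from a population of worms, and the generation number cannot be told apart from the culture of that generation. In these bulk samples, fewer cells of a type and less RNA per cell cannot be told apart.

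The hermaphrodite germ line makes sperm first and then switches to oocytes for the rest of its life. FOG-1 and FOG-3 are the last regulators in the pathway and specify sperm, while TRA-2 holds back the FEM proteins and so favors oocytes. Much of the control is exerted on translation: GLD-1 with FOG-2 represses *tra-2* mRNA so that sperm can form, and the paired PUF proteins FBF-1 and FBF-2 with NOS-3 repress *fem-3* mRNA so that oocytes can follow. Protein and translation were not measured here, so the values below are mRNA levels only.

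Between 26862487 and 46228496 reads were counted on genes per library (median 33517710), and every pair of replicates differed beyond counting noise. Levels are given as CPM (counts scaled to a library total of 1000000, with library sizes normalized by the TMM method over all 24 libraries), and folds as log2 fold changes of hypoxia over normoxia with their standard error (SE) from a separate fit of each exposure. In exposure 2 the log2 ratio of CPM values lies 0.104 below the fitted fold change, and in the other exposures the gap is at most 0.037. The 6 libraries of an exposure had to hold at least 350 counts of a gene for it to be tested by edgeR's quasi-likelihood test, and a gene was called where its p, adjusted by Benjamini-Hochberg over all genes tested, was under 0.05. The samples are labelled as L4, yet all 18 genes of an oocyte and eggshell list passed this filter in each exposure, with a summed level of 5503 to 15699 CPM. A list of 8 genes of the early embryo reached 1.41 to 12.9 CPM in sum. Replicates varied most in exposure 1, with a biological coefficient of variation of 0.235, against 0.101, 0.16 and 0.128 in exposures 2, 3 and 4.

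The members did not respond to hypoxia as a block. *fog-3*, which specifies sperm, was the only member to change by more than 1 log2 unit in any exposure, and it rose in exposures 2 and 4. *tra-2*, which favors oocytes, fell in exposures 1, 2 and 4. The *fbf* genes were called higher in 3 exposures each, and *gld-1* and *nos-3* were called lower in exposures 2 and 4. *fem-3* fell in exposure 2 and rose in exposure 3. In exposure 1, 1 member was called up-regulated and 1 down-regulated, where 13.3% and 7.40% of all genes tested were called (20.7% in either direction). In exposure 2 the counts were 3 up-regulated and 5 down-regulated of 10 members, beside 37.2% and 36.3% of all genes (73.5% in either direction). In exposure 3, 3 of 9 members tested were up-regulated and 0 down-regulated, beside 12.4% and 17.7% of all genes (30.1% in either direction), and *tra-2* and *fem-1* each had an unadjusted p under 0.05 without being called (0.0232 and 0.0235). In exposure 4, 3 members were up-regulated and 4 down-regulated, beside 27.1% and 23.0% (50.1% in either direction). In either direction, 2 of 10, 8 of 10, 3 of 9 and 7 of 10 members were called in exposures 1 to 4. With so few members, these shares were not tested against those of all genes. The median log2 fold change of the members was -0.18, -0.22, 0.17 and -0.15 in exposures 1 to 4, beside -0.02, -0.01, 0.03 and -0.00024 for all genes.

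**Figure D1:**
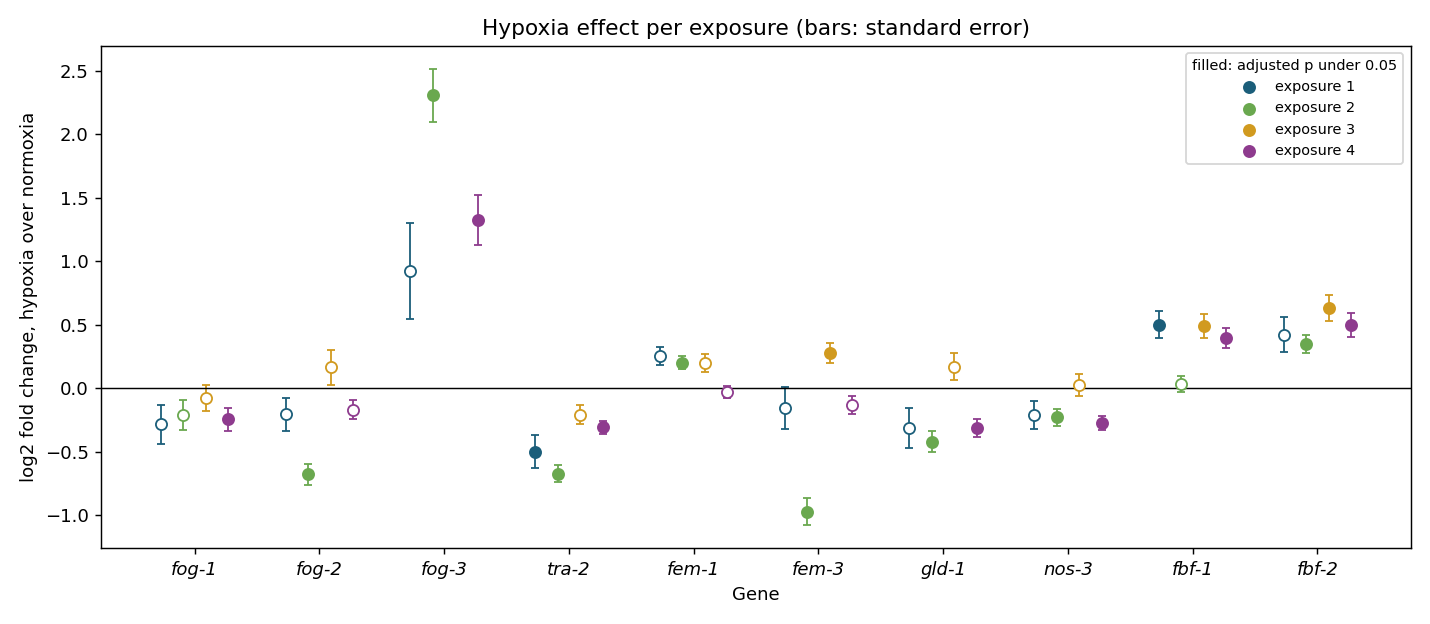
Log2 fold change of hypoxia over normoxia (vertical axis) of each member in each exposure, with bars for the standard error of the edgeR fit and filled circles for an adjusted p under 0.05. *fog-3* reached 2.31 in exposure 2 while 9 of the members stayed between -0.97 and 0.63, and *fog-3* has no point in exposure 3, where it was not tested.

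Some libraries stood apart from the other replicates of their group. The chi-square between the counts of a pair of replicates, per gene, was 10.01 for hypoxia replicates 1 and 3 of exposure 1 and 122.6 and 142 for their pairs with replicate 2. Normoxia replicate 1 of exposure 1 stood as far off (113.1 and 141.7, against 17.44), and hypoxia replicate 1 of exposure 4 farther (432.9 and 452.5, against 5.828). The last was the hypoxia library closest to the normoxia mean for 6 of the 10 members in exposure 4, and leaving it out changed the call of none of the 10 there. Without normoxia replicate 1, *fbf-1* was still called in exposure 1 and *tra-2* was not (-0.44, adjusted p = 0.134, edgeR). Hypoxia replicate 2 of exposure 1 was the closest to the normoxia mean for 7 members. Without it, 3 members were called up-regulated (*fog-3*, *fem-1* and *fbf-1*) and 4 down-regulated (*fog-1*, *fog-2*, *tra-2* and *nos-3*). Under that setting *fog-3* had a log2 fold change of 1.20 (adjusted p = 0.0206, edgeR). Removing the library nearest to normoxia widens the differences of those 7 members by construction, and the share of all genes called without it is not given. With each library of exposure 1 left out in turn, 0 to 3 members were called up-regulated and 0 to 4 down-regulated.

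The members differed widely in level. Per kilobase of exon, *gld-1* was the most abundant at a mean of 449.7 CPM per kb over the 24 libraries (234.6 to 604), followed by *nos-3* at 76.3 (52.0 to 90.5). The ranges of these genes did not meet each other or that of any other member. *fem-1* at 37.9 CPM per kb and *fem-3* at 36.0 came next, and the *fem-3* range (16.3 to 50.1) enclosed that of *fem-1* (33.7 to 42.9). *fog-2* (23.6), *fbf-1* (21.5), *tra-2* (16.9), *fbf-2* (15.4) and *fog-1* (11.5) followed, each with a range that overlapped that of its neighbor in this order. *fog-3* was lowest at 1.84 CPM per kb, and its highest library (3.80) lay below the lowest library of *fog-1* (7.01). *fog-3* was also the member that varied most, with a 6.42-fold span between its lowest and highest library, and *fem-1* the one that varied least, with a 1.27-fold span.

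**Figure D2:**
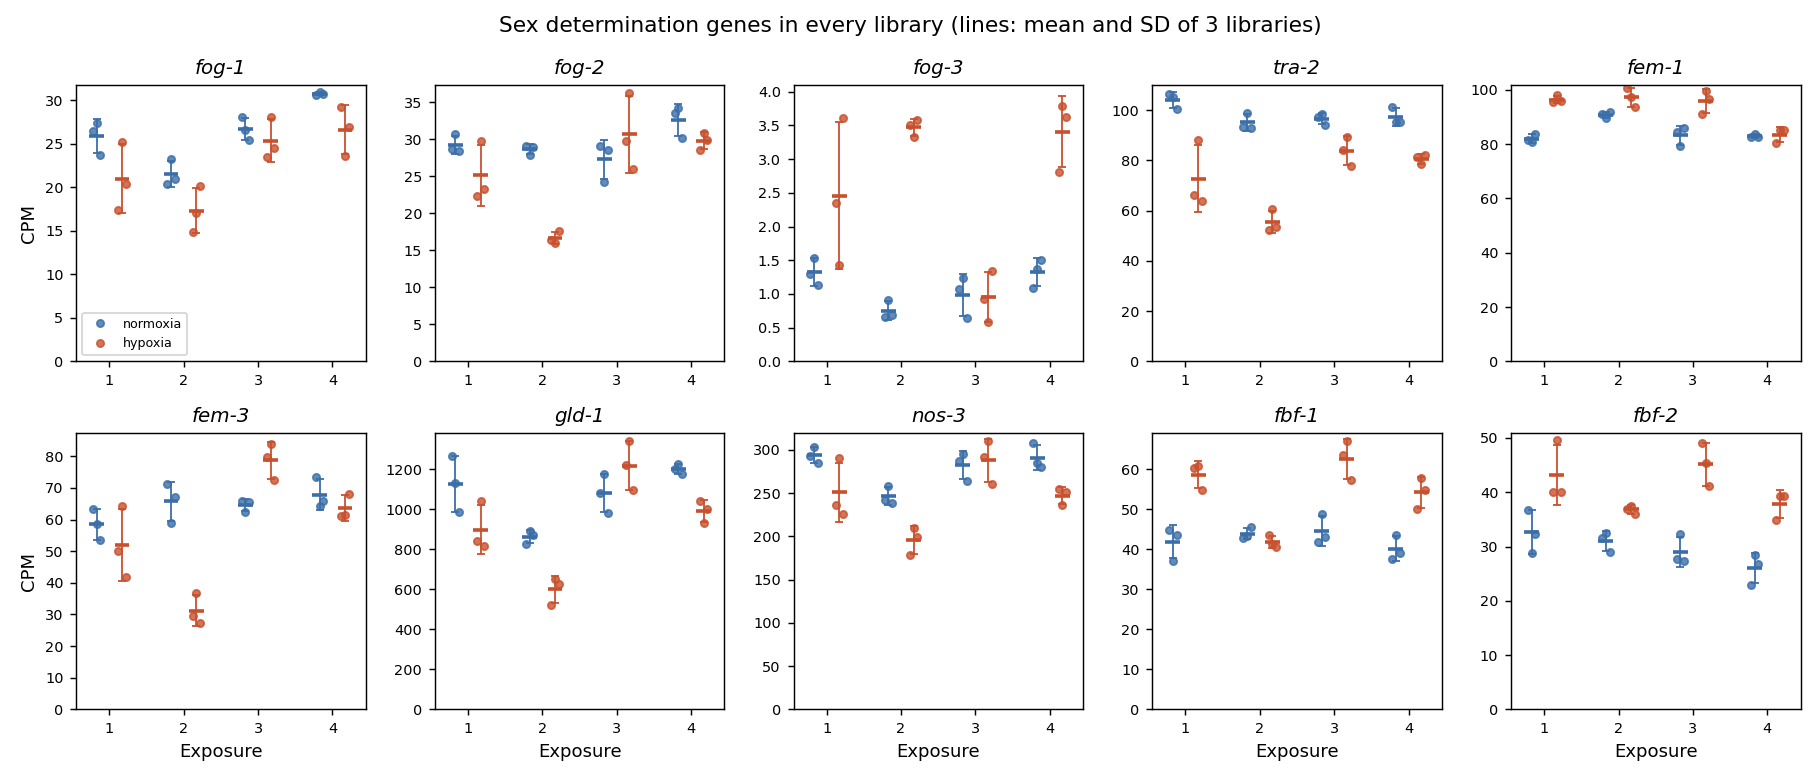
CPM of the 10 members (vertical axes, from 0, scaled per gene) in normoxia and hypoxia libraries of exposures 1 to 4, 1 point per library, with lines for the mean and SD of 3 libraries. *fog-3* lay at 3.33 to 3.58 CPM in hypoxia of exposure 2 against 0.662 to 0.913 in normoxia, while *fem-3* went the other way, from 59.0 to 71.1 down to 27.4 to 36.8.

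*fog-3* encodes a protein of the Tob and BTG family that germ cells need to become sperm (I:10016765-10018121, forward strand, WBcel235). In exposure 2 its level was 0.662, 0.913 and 0.685 CPM in the normoxia libraries and 3.50, 3.33 and 3.58 CPM in the hypoxia libraries. In exposure 4 it was 1.09, 1.37 and 1.50 CPM in normoxia and 2.81, 3.79 and 3.62 CPM in hypoxia. All hypoxia libraries thus lay above all normoxia libraries in both exposures, at about the same hypoxic level. The rise was 4.95-fold in exposure 2 (log2 fold change 2.31, SE 0.21, adjusted p = 3.91e-06) and 2.51-fold in exposure 4 (1.33, SE 0.19, adjusted p = 0.000812, both edgeR). In exposure 1 the normoxia libraries had 1.29, 1.54 and 1.13 CPM and the hypoxia libraries 2.34, 1.43 and 3.60 CPM. Hypoxia replicate 2 fell among the normoxia libraries there, and the log2 fold change of 0.93 (SE 0.38) was not called (adjusted p = 0.133, edgeR). In exposure 3 the levels were 1.08, 1.23 and 0.642 CPM in normoxia and 0.928, 0.591 and 1.33 CPM in hypoxia, so the groups overlapped throughout. The 195 counts of *fog-3* in exposure 3 were under the filter, and without it the log2 fold change was -0.00734 (adjusted p = 0.991, edgeR). All its values rest on few reads, 14 to 155 counts per library.

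*fog-1* encodes an RNA-binding protein of the CPEB family that acts beside FOG-3 (I:3211046-3217267, forward strand). It did not share the rise of *fog-3*: its log2 fold change was -0.29, -0.21, -0.08 and -0.25 in exposures 1 to 4. In exposure 4 the normoxia libraries had 30.6, 31.0 and 30.7 CPM and the hypoxia libraries 29.3, 23.7 and 26.9 CPM. These groups did not overlap, and the fall was called at an adjusted p of 0.0465 (edgeR), a call lost without replicate 2 or 3 of either treatment (adjusted p up to 0.146), with upper-quartile scaling (0.0781) and in one fit of all 24 libraries (0.194). In exposure 2 the groups were also apart, with 20.4 to 23.2 CPM in normoxia and 14.9 to 20.1 in hypoxia. Their gap was narrower than the offset between CPM ratios and the fit in that exposure, so the separation depends on the scale. The adjusted p in exposure 2 was 0.138, but 0.0307 without hypoxia replicate 3 and 0.0316 in one fit of all 24 libraries (edgeR). In exposures 1 and 3 the groups overlapped. The log2 ratio of *fog-1* to *fog-3* CPM accordingly was 4.30 ± 0.13 in normoxia and 3.18 ± 0.86 in hypoxia of exposure 1 (SD, n = 3), and 4.85 ± 0.16 and 2.31 ± 0.21 in exposure 2. It was 4.81 ± 0.45 and 4.81 ± 0.70 in exposure 3 and 4.55 ± 0.23 and 2.97 ± 0.37 in exposure 4. The 2 mRNAs were thus nearest in level under hypoxia of exposure 2 and equally far apart in both groups of exposure 3. Over the 24 libraries their log2 CPM values had a Pearson r of -0.37, a description only, since the libraries share cultures and treatments.

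*gld-1* encodes a KH-domain translational repressor that is needed for entry into oocyte differentiation as well as for hermaphrodite sperm (I:7695681-7698222, forward strand). In exposure 2 its level was 827, 891 and 869.8 CPM in normoxia and 521, 653 and 625 CPM in hypoxia. In exposure 4 it was 1201, 1225 and 1177 CPM in normoxia and 1040.3, 933 and 1000.3 CPM in hypoxia. The groups were apart in both exposures with hypoxia lower. Log2 fold changes were -0.42 (SE 0.09, adjusted p = 0.00118) and -0.31 (SE 0.07, adjusted p = 0.00793, both edgeR), the latter not called in one fit of all 24 libraries (-0.27, adjusted p = 0.0571). That fit called *gld-1* lower in exposure 1 (-0.33, adjusted p = 0.0215). In exposure 1 the groups overlapped at 987 to 1269 CPM in normoxia and 815 to 1041 in hypoxia (log2 fold change -0.31, adjusted p = 0.209), and in exposure 3 at 984 to 1175 and 1096 to 1339.6 CPM (0.17, adjusted p = 0.261).

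*fog-2* encodes an F-box protein that binds GLD-1 and is needed for sperm in hermaphrodites but not in males (V:20199254-20200648, forward strand). In exposure 2 its level was 29.1, 27.9 and 29.01 CPM in normoxia and 16.5, 16.0 and 17.6 CPM in hypoxia. The groups were far apart, and *fog-2* fell 1.60-fold (log2 fold change -0.68, SE 0.08, adjusted p = 3.07e-05, edgeR). In the other exposures its groups overlapped, with log2 fold changes of -0.20, 0.16 and -0.17 in exposures 1, 3 and 4 (adjusted p = 0.306, 0.411 and 0.1). Without hypoxia replicate 2 of exposure 1 (adjusted p = 0.0403) or normoxia replicate 3 of exposure 4 (adjusted p = 0.0497) it was called there. *fog-2* arose by duplication and has a close relative, *ftr-1*, beside it on the same strand (V:20196971-20198241). *ftr-1* also fell in exposure 2, from 18.6 to 20.3 CPM in normoxia to 11.2 to 12.97 CPM in hypoxia (log2 fold change -0.59, adjusted p = 0.000342). Unlike *fog-2*, it was called higher in exposures 1, 3 and 4 (0.54, 0.52 and 0.55, adjusted p = 0.041, 0.0187 and 0.00598, edgeR). The *ftr-1* call in exposure 1 was lost without any library but hypoxia replicate 2 (adjusted p up to 0.144), and that in exposure 3 without replicate 1 of either treatment (adjusted p up to 0.0668). When scaled to germline genes, only its rise in exposure 4 was called, and its fall in exposure 2 was -0.22 (adjusted p = 0.136). How reads that align to both copies were counted is not given in the sources used here, so the values of each copy are uncertain.

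*tra-2* encodes the membrane receptor whose mRNA GLD-1 and FOG-2 repress (II:6955384-6965673, reverse strand), and it was the member that fell most often. In exposure 1 the normoxia libraries had 107, 105 and 100.4 CPM and the hypoxia libraries 66.1, 88.0 and 63.9 CPM. In exposure 2 they had 93.4, 99.0 and 92.9 CPM against 52.4, 60.6 and 53.4 CPM. In exposure 4 they had 101, 95.2 and 95.5 CPM against 81.3, 78.5 and 82.2 CPM. Every hypoxia library lay below every normoxia library in these exposures and in exposure 3 too, where normoxia had 94.2 to 98.4 CPM and hypoxia 78.0 to 89.3. Such a lower level with no overlap in all 4 exposures was found for 3.84% of the genes tested in each. The log2 fold changes were -0.50 (SE 0.13, adjusted p = 0.037), -0.67 (SE 0.07, adjusted p = 7.81e-06), -0.21 (SE 0.07, adjusted p = 0.0684) and -0.31 (SE 0.05, adjusted p = 0.00122) in exposures 1 to 4 by edgeR. *tra-2* was therefore called in 3 exposures, as were 6.46% of genes in at least 3 with the lower level. The call in exposure 1 was lost without 5 of the 6 libraries in turn (adjusted p up to 0.169) and stood without hypoxia replicate 2 (adjusted p = 0.00209). In exposure 3 *tra-2* was called without hypoxia replicate 2 (adjusted p = 0.0373).

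The FEM proteins act between TRA-2 and the terminal transcription factor TRA-1, as parts of a ubiquitin ligase that removes TRA-1. *fem-3* (IV:9104966-9107607, forward strand) is a member whose mRNA the FBF proteins repress. In exposure 2 its level was 71.1, 59.0 and 67.0 CPM in normoxia and 29.5, 36.8 and 27.4 CPM in hypoxia. In exposure 3 it was 66.0, 62.5 and 65.6 CPM in normoxia and 79.8, 83.8 and 72.5 CPM in hypoxia. The groups were apart in both, with hypoxia lower in exposure 2 and higher in exposure 3. *fem-3* fell 1.96-fold in exposure 2 (log2 fold change -0.97, SE 0.11, adjusted p = 1.86e-05) and rose 1.21-fold in exposure 3 (0.28, SE 0.08, adjusted p = 0.0289, both edgeR). The call in exposure 3 was lost without 5 of the 6 libraries in turn (adjusted p up to 0.0917), all but hypoxia replicate 3, and in one fit of all 24 libraries (adjusted p = 0.0872). In exposures 1 and 4 the groups overlapped, at log2 fold changes of -0.16 (adjusted p = 0.528) and -0.13 (adjusted p = 0.149).

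*fem-1* encodes the ankyrin-repeat subunit that binds the target of this ligase (IV:5533140-5537962, reverse strand). Its level stayed within 79.1 to 101 CPM in all libraries. Hypoxia lay above normoxia without overlap in exposures 1, 2 and 3, at 95.6 to 97.9 against 80.7 to 83.8 CPM, 93.8 to 101 against 89.7 to 91.9 CPM, and 91.0 to 99.6 against 79.1 to 86.1 CPM. The log2 fold changes were 0.25 (SE 0.07), 0.20 (SE 0.05) and 0.20 (SE 0.07), and only that of exposure 2 was called (adjusted p = 0.0514, 0.00462 and 0.0691, edgeR). In one fit of all 24 libraries the call in exposure 2 was lost (0.0975, adjusted p = 0.0742, edgeR). That fit called *fem-1* higher in exposures 1 and 3 instead (0.23 and 0.20, adjusted p = 0.000493 and 0.00248). Exposure 1 was also called by DESeq2 (adjusted p = 0.0189) and by edgeR with upper-quartile scaling (0.0443). In exposure 4 the groups overlapped, at 80.5 to 85.1 CPM in hypoxia and 82.5 to 83.7 in normoxia (-0.03, adjusted p = 0.658).

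*fbf-1* and *fbf-2* encode near-identical RNA-binding proteins of the PUF family that keep germline stem cells and allow the switch to oocytes. They lie near each other on the reverse strand of chromosome II (6078263-6080843 and 6088863-6091480), and the split of reads between such similar copies is uncertain. *fbf-2* had 36.8, 28.8 and 32.3 CPM in normoxia and 40.1, 49.6 and 40.1 CPM in hypoxia of exposure 1. It had 31.6, 32.6 and 29.04 against 36.98, 37.5 and 36.0 CPM in exposure 2. In exposure 3 it had 27.6, 32.2 and 27.3 CPM in normoxia against 49.02, 45.3 and 41.1 CPM in hypoxia, and in exposure 4 it had 22.9, 28.4 and 26.8 against 34.8, 39.3 and 39.2 CPM. Hypoxia was higher without overlap in every exposure, a pattern of 7.99% of genes tested in all 4. The log2 fold changes of *fbf-2* were 0.42 (SE 0.14, adjusted p = 0.0746), 0.35 (SE 0.07, adjusted p = 0.00134), 0.63 (SE 0.11, adjusted p = 0.00325) and 0.50 (SE 0.10, adjusted p = 0.00312) by edgeR. It was called in exposures 2, 3 and 4. In exposure 1 it was called in one fit of all 24 libraries (adjusted p = 0.00451) and when scaled to germline genes (0.0206, both edgeR).

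*fbf-1* was called higher in exposures 1, 3 and 4. Its level was 45.0, 37.2 and 43.6 CPM in normoxia and 60.2, 60.9 and 54.8 CPM in hypoxia of exposure 1. It was 41.7, 48.8 and 43.2 against 63.7, 67.0 and 57.2 CPM in exposure 3, and 37.7, 43.6 and 39.2 against 50.0, 57.8 and 55.0 CPM in exposure 4. Hypoxia was higher without overlap in each of these. In exposure 2 the groups overlapped, at 42.9 to 45.5 CPM in normoxia and 40.5 to 43.5 in hypoxia. The log2 fold changes were 0.50 (SE 0.11, adjusted p = 0.0171), 0.03 (SE 0.06, adjusted p = 0.667), 0.49 (SE 0.09, adjusted p = 0.00649) and 0.40 (SE 0.08, adjusted p = 0.00428) in exposures 1 to 4 by edgeR. Calls in at least 3 exposures with the higher level were made for 14.3% of genes. The exposure 1 call was lost without normoxia replicate 2, normoxia replicate 3 or hypoxia replicate 1 (adjusted p up to 0.0715). The log2 ratio of *fbf-1* to *fbf-2* was 0.50 ± 0.13 in normoxia and 0.18 ± 0.05 in hypoxia of exposure 2 (SD, n = 3), the one exposure in which these ratios were lower in hypoxia by more than 0.2.

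*nos-3* encodes a Nanos-family protein that partners FBF on *fem-3* mRNA (II:9746316-9750462, forward strand). It was called lower in the same exposures as *gld-1*. In exposure 2 its level was 239 to 258 CPM in normoxia and 178 to 210.2 CPM in hypoxia, and in exposure 4 it was 281 to 308 and 236 to 254 CPM. The groups did not overlap in either. Its log2 fold changes were -0.23 (SE 0.07, adjusted p = 0.0111) and -0.27 (SE 0.06, adjusted p = 0.0044, both edgeR). In exposures 1 and 3 the groups overlapped (-0.21 and 0.03, adjusted p = 0.233 and 0.846). One fit of all 24 libraries called *nos-3* lower in exposure 1 as well (-0.23, adjusted p = 0.0381, edgeR). *gld-1* and *nos-3* had the highest correlation of the 45 pairs of members over the 24 libraries (Pearson r = 0.95), and *fog-3* and *tra-2* the lowest (r = -0.72), as descriptions over libraries that share cultures and treatments.

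Counting members by overlap alone, 4, 9, 5 and 7 of the 10 had groups that did not overlap in exposures 1 to 4. The same held for 40.8%, 78.4%, 47.3% and 59.1% of all genes tested.

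Whether the response to hypoxia depended on the exposure was tested in one fit of all 24 libraries, over 9 of the members and 12517 genes that passed the filter in every exposure. The response of 6 members differed among the 4 exposures, where 68.2% of all genes were called. They were *fem-3* (adjusted p = 3.09e-05), *fog-2* (0.000443), *fbf-1* (0.000958), *tra-2* (0.00212), *gld-1* (0.00495) and *fem-1* (0.0242, all edgeR). *fog-1*, *fbf-2* and *nos-3* were not called (0.545, 0.117 and 0.0655), though *nos-3* was without hypoxia replicate 2 of exposure 1 or of exposure 2 (0.0246 and 0.0469). When scaled to germline genes, the calls of *fog-2*, *gld-1* and *fbf-1* ended (0.213, 0.0831 and 0.193) and *nos-3* was called (0.00523), and with no filter on low counts that of *fem-1* ended (0.323). From exposure 1 to exposure 2 the response of 3 members moved downward, beside 34.8% of genes called in either direction and 21.4% downward. The differences in log2 fold change were -0.91 for *fem-3* (SE 0.18, adjusted p = 0.000801), -0.56 for *fog-2* (SE 0.16, adjusted p = 0.0111) and -0.56 for *fbf-1* (SE 0.12, adjusted p = 0.00156). The median log2 fold change of all genes in this fit was -0.038 in exposure 1 and -0.126 in exposure 2, so the median gene moved downward as well. Not all genes did, since 13.4% were called upward. When scaled to germline genes, *fem-3* kept its call (-0.49, adjusted p = 0.0104), while *fog-2* fell to -0.13 (adjusted p = 0.526) and *fbf-1* to -0.14 (adjusted p = 0.4). The *fog-2* call was also lost with no filter (-0.50, adjusted p = 0.0659) and without hypoxia replicate 2 of exposure 1 (-0.35, adjusted p = 0.0589), and a call of *tra-2* was gained without hypoxia replicate 3 of exposure 1 (-0.34, adjusted p = 0.0334). *fog-3*, tested with no filter on low counts, had the opposite difference of 1.36 (adjusted p = 0.0332).

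Exposure 4 was set against the mean of exposures 1 to 3, since the study asked how 4 exposures in a row differ from fewer. Of 9 members, *fem-1* alone was called, with a difference of -0.16 (SE 0.05, adjusted p = 0.0395, edgeR), beside 19.7% of all genes and 4.57% in this direction. The call was lost in 7 of the 24 fits that left out 1 library (adjusted p up to 0.0754). Those libraries were normoxia replicate 2 of exposures 1 and 2, hypoxia replicate 2 of exposure 2, and normoxia replicates 1 and 3 and hypoxia replicates 2 and 3 of exposure 4. When scaled to germline genes, *fem-1* was not called (-0.16, adjusted p = 0.25) and *tra-2* was (0.24, adjusted p = 0.0186). The other members had differences between -0.06 (*nos-3*) and 0.23 (*tra-2*), with adjusted p of 0.117 or more, and *tra-2* was called without hypoxia replicate 2 of exposure 1 (0.19, adjusted p = 0.0443).

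The members' normoxia levels also differed between generations. Of 9 tested, *gld-1* (adjusted p = 0.00755), *fog-1* (0.014) and *fem-1* (0.0332) were called by edgeR, where 54% of all genes were. *gld-1* was lowest in normoxia of exposure 2 at 862 ± 32.7 CPM and highest in that of exposure 4 at 1201 ± 23.6 (SD, n = 3). *fog-1* was likewise lowest in exposure 2 and highest in exposure 4, at 21.5 ± 1.50 and 30.8 ± 0.175 CPM. *fem-1* was highest in exposure 2 at 90.9 ± 1.08 CPM, with 82.0 to 83.2 CPM on average in the other exposures. Its call was lost without 11 of the 24 libraries in turn (adjusted p up to 0.203). These were replicate 2 of both treatments in exposure 1, the normoxia replicates and hypoxia replicates 1 and 3 of exposure 2, hypoxia replicate 3 of exposure 3, and normoxia replicates 2 and 3 and hypoxia replicate 1 of exposure 4. That of *fog-1* was lost without normoxia replicate 1 or 3 of exposure 2 (adjusted p up to 0.0531) and when scaled to germline genes (0.107), and that of *fem-1* with no filter (0.851). With 1 library left out, a call of *nos-3* was gained in 7 fits, of *fog-2* and *fbf-2* in 2 each and of *tra-2* in 1, the lowest adjusted p being 0.00202 for *nos-3* without hypoxia replicate 2 of exposure 1.

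Other genes of the sex determination pathway were followed as lists. The first holds 10 tested genes of the wider pathway, from the X chromosome counting genes to the terminal factor. *tra-1*, the transcription factor that the FEM proteins counter, was the only one of them to be called higher, and it was so in all 4 exposures, as were 4.45% of genes tested in each. Its log2 fold changes were 0.50, 0.16, 0.33 and 0.34 (adjusted p = 0.0105, 0.033, 0.00578 and 0.000491, edgeR). Its mean level was 108 and 151 CPM in normoxia and hypoxia of exposure 1, 109.5 and 114 in exposure 2, 115 and 145 in exposure 3, and 112 and 145 in exposure 4. In exposure 2 the groups overlapped and the call was lost without 4 of the 6 libraries in turn, namely normoxia replicates 1 and 3 and hypoxia replicates 2 and 3 (adjusted p up to 0.135). The exposure 2 call was also lost with DESeq2 (0.16, adjusted p = 0.0524) and in one edgeR fit of all 24 libraries (0.0527, adjusted p = 0.398). The exposure 3 call ended when scaled to germline genes (0.18, adjusted p = 0.151). *tra-1* and *tra-2* thus had opposite signs in every exposure.

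The same list had 4, 9, 3 and 4 genes called lower in exposures 1 to 4, beside 7.40%, 36.3%, 17.7% and 23.0% of all genes. *sex-1*, a nuclear receptor that reads the number of X chromosomes, was lower in all 4 (-0.95, -1.28, -0.56 and -0.30), as were 1.98% of genes. *fox-1*, an RNA-binding protein with the same task, was called in exposures 1, 2 and 3 (-0.76, -1.31 and -0.40). The dosage compensation genes *sdc-1* and *sdc-2* were each called in 3, *sdc-1* in exposures 1, 2 and 4 (-0.60, -0.80 and -0.33) and *sdc-2* in exposures 1, 2 and 3 (-0.61, -0.86 and -0.82). *sdc-2* shares 1181 exonic bases with the antisense gene *anr-16*, and the strand setting of the counting is not given in the sources used here. *xol-1* and *her-1*, which act in males, were under the filter.

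The *mog* genes are needed for the switch to oocytes and act on *fem-3* mRNA. Of 5 tested, 1, 1, 0 and 4 were called lower in exposures 1 to 4 and none higher. Of all genes, 7.40%, 36.3%, 17.7% and 23.0% were called lower, and 13.3%, 37.2%, 12.4% and 27.1% higher. The same shares apply to the lists that follow, and no list was tested against them. *mog-3* was called in exposures 1, 2 and 4 (-0.35, -0.28 and -0.31), and *mog-2* in exposure 4 alone (-0.20). Of 18 partners of the translational regulators and of germline stem cell control, 1, 13, 0 and 14 were lower and 0, 2, 1 and 0 higher. *lst-1*, an FBF partner in stem cells, was called in exposures 1, 2 and 4 (-0.43, -0.67 and -0.27). *nos-2*, another Nanos gene, had the largest mean fall, with calls in exposures 2 and 4 (-0.85 and -0.36). The largest positive means belonged to the ataxin gene *atx-2*, called higher in exposure 2 (0.29), and to *larp-1*, which was called in no exposure (-0.10 to 0.25). Of 10 mRNAs that GLD-1 binds, 0, 10, 0 and 9 were lower and none higher, at medians of -0.32, -0.67, 0.11 and -0.28, and 5 of these genes are also on the oocyte and eggshell list.

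**Figure D3:**
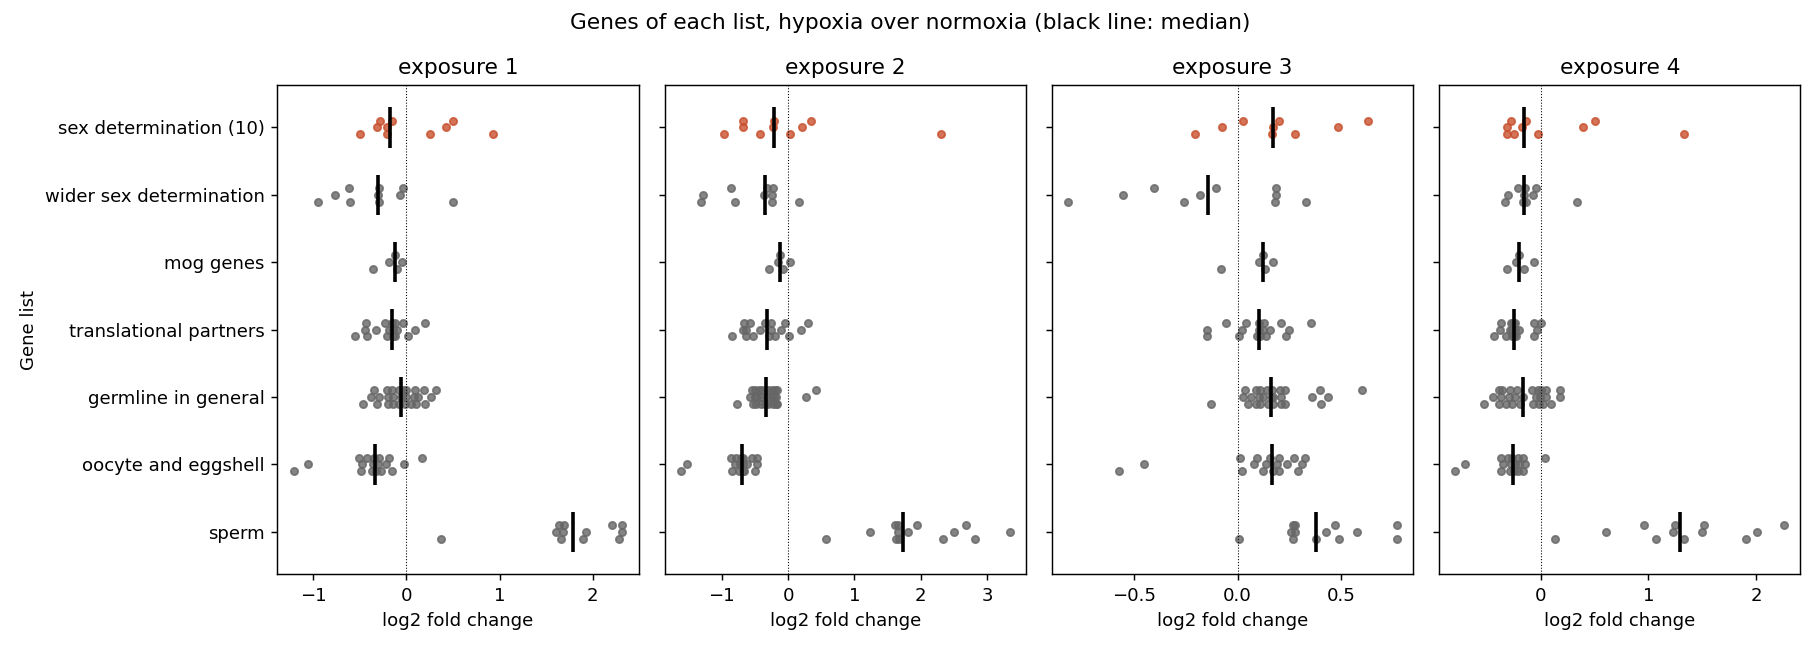
Log2 fold change of hypoxia over normoxia (horizontal axis, scaled per exposure) of the tested genes of each list, 1 point per gene, with a black line at the median and the 10 members in red. Sperm genes had medians of 1.79, 1.74, 0.38 and 1.29 in exposures 1 to 4, while the oocyte and eggshell list had -0.34, -0.70, 0.17 and -0.26.

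Markers of germ cell types also differed between hypoxia and normoxia. Of all genes, 13.3%, 37.2%, 12.4% and 27.1% were called higher in exposures 1 to 4, and 7.40%, 36.3%, 17.7% and 23.0% lower. Of the tested genes of an 18-gene sperm list, 11 of 12 were called higher in exposure 1, 14 of 14 in exposure 2, 4 of 13 in exposure 3 and 10 of 12 in exposure 4, with none lower. The summed sperm level was 82.5 to 91.0 CPM in normoxia and 238 to 261 in hypoxia of exposure 1, and 107 to 112 and 309 to 314 in exposure 2. It was 157 to 163 and 176 to 244 in exposure 3, and 74.9 to 80.3 and 168 to 184 in exposure 4. *fog-3* was called in exposures 2 and 4, and its groups overlapped in exposures 1 and 3. The oocyte and eggshell list had 2, 18, 2 and 15 of 18 genes lower and 0, 0, 2 and 0 higher. A list of 27 genes of the germ line in general had 1, 21, 0 and 13 lower and 0, 2, 5 and 1 higher, at medians of -0.06, -0.33, 0.16 and -0.16. The part of these shifts in the members' results was not tested beyond the rescaling given next.

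When each exposure was scaled to the 27 germline genes in place of TMM, the median log2 fold change of all genes moved by 0.05, 0.37, -0.16 and 0.17 in exposures 1 to 4, and the members moved with it. Relative to the germline genes, *fog-3* still rose in exposures 2 and 4, *fbf-2* rose in all 4 exposures and *fbf-1* too, its log2 fold change in exposure 2 being 0.40 (adjusted p = 0.00196, edgeR). *tra-2* was called lower in exposures 1, 2 and 3, and in exposure 4 its value was -0.14 (adjusted p = 0.0822). *fog-2* and *fem-3* stayed lower in exposure 2. The rise of *fem-3* in exposure 3 was not called (0.12, adjusted p = 0.276), nor was the fall of *fog-1* in exposure 4 (-0.08, adjusted p = 0.478). The calls of *gld-1* ended, at -0.06 in exposure 2 (adjusted p = 0.527) and -0.15 in exposure 4 (adjusted p = 0.122). Those of *nos-3* ended as well, at 0.14 in exposure 2, where the sign turned, and at -0.11 in exposure 4 (adjusted p = 0.193). The scaling places the center of the 27 germline genes near 0, so the loss of most of their calls was fixed in advance. Of all genes, 2249, 9518, 3202 and 6068 were called in either direction under it, at medians of 0.03, 0.36, -0.13 and 0.17. Under this scaling the germline list itself had 1, 1, 1 and 5 genes lower, the oocyte and eggshell list 2, 14, 2 and 5, the partners 3, 6, 3 and 3, the *mog* genes 0, 0, 1 and 0, and the GLD-1 targets 0, 8, 0 and 2. Genes called higher were 1, 4, 5 and 6 on the germline list, 0, 6, 0 and 0 among the partners and 0, 4, 0 and 0 of the *mog* genes, and the sperm list had 11, 14, 0 and 12.

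**Figure D4:**
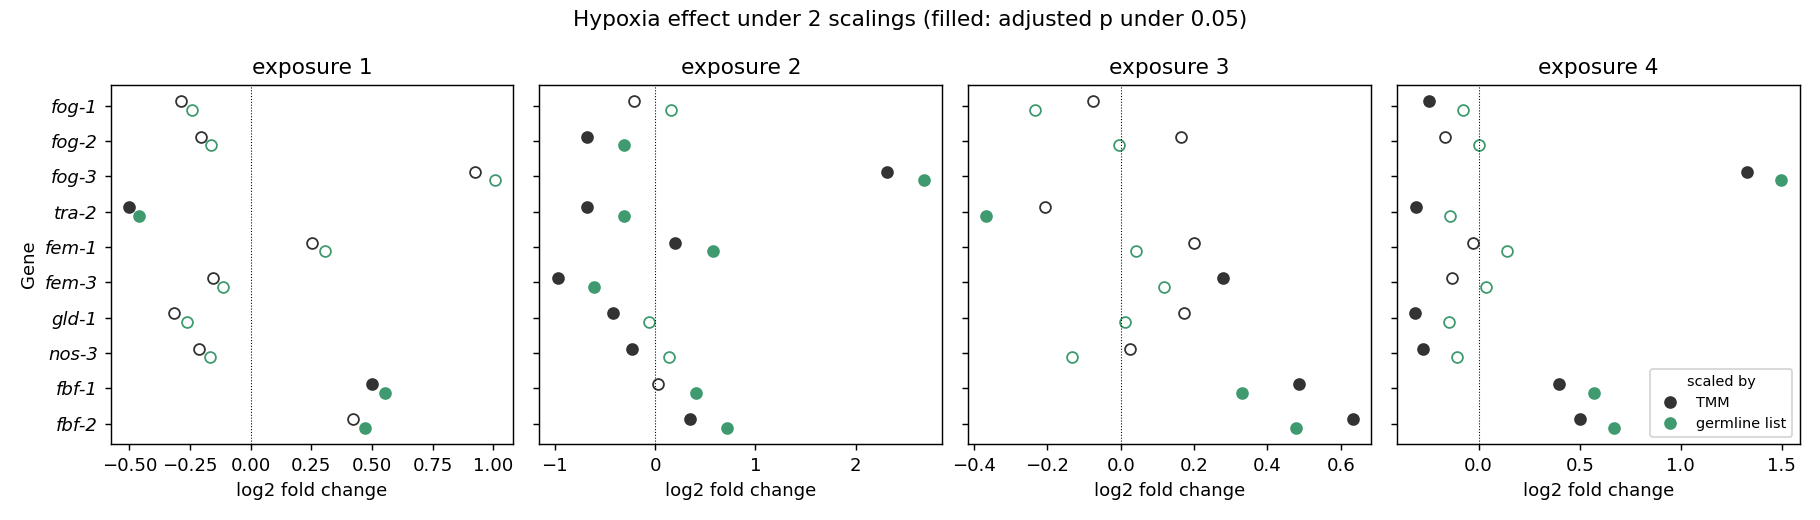
Log2 fold change of hypoxia over normoxia (horizontal axis, scaled per exposure) of each member with TMM scaling and with scaling to 27 germline genes, filled where the adjusted p was under 0.05. In exposure 2 *gld-1* moved from -0.42 to -0.06 and *nos-3* from -0.23 to 0.14, while *tra-2*, *fem-3*, *fog-2*, *fog-3*, *fem-1* and *fbf-2* were called under both scalings.

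Somatic and stage markers differed between the groups as well. Called lower in exposures 1 to 4 were 7.40%, 36.3%, 17.7% and 23.0% of all genes, and higher 13.3%, 37.2%, 12.4% and 27.1%. The summed level of 6 molting genes was 377 to 758 CPM in normoxia and 51.3 to 492 in hypoxia over the exposures, with 4, 4, 6 and 6 genes lower and 2 higher in exposure 2. Of 5 intestine and yolk genes, 2, 5, 5 and 2 were lower and 1 was higher in exposure 4, and of 3 epidermis genes 0, 2, 2 and 3 were lower and 1 was higher in exposure 2. The 3 muscle genes were all higher in exposure 2 and called in no other, and of 3 neuron genes 1 was lower in each exposure and 1 higher in exposures 2 and 3. The 2, 1, 1 and 1 embryo genes tested were all lower. The part of these differences in the members' results was not tested.

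For *fog-1*, *fog-3* and *gld-1*, the genes with the most similar log2 CPM over the 24 libraries were looked up among 12508 genes outside the members, as a description with no test. *gld-1* was followed most closely by *cgh-1* (Pearson r = 0.99), *gla-3* (0.99), *D1044.6* (0.98), *patr-1* (0.98) and *sun-1* (0.98). *fog-1* was followed by *C50E3.12* (0.95), *fbxa-206* (0.94), *M106.3* (0.94), *K05C4.7* (0.94) and *tdpt-1* (0.94). The likeness was lower for *fog-3*, whose counts are few, with *gpdh-1* (0.90), *F32A5.4* (0.90), *ndnf-1* (0.89), *daf-7* (0.89) and *flp-4* (0.89). All of these libraries share cultures, treatments and one scaling.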

How the data were processed

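RNA was sequenced from whole worms in 24 libraries, grouped by the treatment and generation in the sample labels. The libraries were directional and made from poly(A) RNA. The authors checked reads with FastQC, trimmed them with cutadapt 4.0, aligned them with Bowtie2 to the WS235 genome, sorted them with SAMtools and counted them with featureCounts. What was deposited is a table of raw counts of reads per gene. The strand setting and the handling of reads with several alignments are not given in the sources used here. The authors also deposited DESeq2 tables of their own fold changes and p-values, which were not used. Names and WBcel235 coordinates came from Ensembl, and 44115 of 46926 genes had a symbol.

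Hypoxia was compared with normoxia in each exposure with the quasi-likelihood functions glmQLFit and glmQLFTest of edgeR 4.0.16 under R 4.3.3, after TMM normalization, on genes with at least 350 counts in sum, called at an adjusted p under 0.05. Contrasts between exposures came from one fit of 24 libraries. With 3 libraries against 3 the smallest exact p is 0.1, so tests borrow the spread across genes. Replicates were deposited as separate samples, and p-values measure the spread between them. Alternatives were DESeq2 1.42.0, upper-quartile scaling, a filter of 1 count in all or of 10 in each library, a replicate block, one fit of all libraries, scaling to 27 germline genes, and each library left out.

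The members and the gene lists were chosen with earlier results of these data known. The 10 members are named with their values. Of the other pathway lists, genes called the same way in at least 3 exposures, or with the 2 largest mean rises or falls, are named, with close paralogs and the 5 genes most like *fog-1*, *fog-3* and *gld-1* by correlation of log2 CPM with a prior count of 2. Of the listed genes, 1 (*mog-6*) matched no symbol. The scripts were tested on simulated data. Of 100 genes changed by 1 log2 unit, 23, 96, 73 and 89 were called in exposures 1 to 4. False calls made up 5.17%, 6.37%, 9.24% and 5.79% of the calls there, and 8.43% in the contrast of exposure 4 with the earlier mean. Each simulated exposure held 100 genes changed by 1 log2 unit and 100 by 2, far fewer than were called in the data. No simulated library stood apart from its group, so these rates need not hold for the data. In the simulation, calls were not equally likely in each exposure.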

Additional observations from a re-analysis of the deposited data

Results flagged for a closer look

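The response of *fem-3* to hypoxia moved by -0.91 on the log2 scale from exposure 1 to exposure 2, by the test of the difference itself (adjusted p = 0.000801, edgeR). Those of *fog-2* and *fbf-1* moved by -0.56 each in the same test (adjusted p = 0.0111 and 0.00156), but at -0.13 and -0.14 neither was called when scaled to germline genes (adjusted p = 0.526 and 0.4). That of *fog-2* was also lost with no filter on low counts (adjusted p = 0.0659) and without hypoxia replicate 2 of exposure 1 (adjusted p = 0.0589). The response of *fem-1* in exposure 4 differed by -0.16 from the mean of exposures 1 to 3 (adjusted p = 0.0395), a call lost when scaled to germline genes (adjusted p = 0.25). For *fem-3*, every hypoxia library lay below every normoxia library in exposure 2 and above in exposure 3. The log2 fold changes of these exposures differed by 1.36 in the fit of all libraries, and this pair was not tested by itself.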

How the results depend on the processing

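Of 506 values of the members within an exposure under an alternative, 440 kept their direction and their side of the threshold, 32 lost a call, 21 gained one and 13 turned in sign. Of 1048 values of the differences between exposures, 957, 35, 28 and 28 did so. The calls of *fog-3* in exposures 2 and 4, *tra-2*, *fog-2* and *fem-3* in exposure 2, *fbf-2* in exposures 2, 3 and 4 and *fbf-1* in exposures 3 and 4 stood under every alternative run. The 14 to 155 counts per library behind *fog-3*, and the wide spread of exposure 1, limit what could be called.

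In exposure 1 the members called higher went from 1 to 2 with DESeq2, 2 with upper-quartile scaling, 3 in one fit of all libraries and 2 with germline scaling, and those called lower from 1 to 3 in one fit. All genes called in exposure 1, in either direction, went from 2727 to 3708, 2683, 5581 and 2249 under these 4 settings in turn. In exposure 2 the higher count went from 3 to 1 in one fit, which did not test *fog-3* and ended the call of *fem-1*, and the lower count from 5 to 3 with germline scaling. All genes called there went from 10156 to 8683 in one fit and 9518 with germline scaling. In exposure 3 the lower count went from 0 to 1 with upper-quartile scaling, at least 10 counts or germline scaling. All genes called there went from 3895 to 3755, 4138 and 3202 in turn. In exposure 4 the lower count went from 4 to 2 in one fit and 0 with germline scaling. All genes called there went from 6741 to 4697 and 6068. The members that differed in exposure 4 from the mean of exposures 1 to 3 went from 1 to 0 with no filter, and those that differed in normoxia from 3 to 5 with germline scaling. One gene replaced another in the first of these contrasts with germline scaling, *tra-2* for *fem-1*, and in normoxia with no filter, *nos-3* for *fem-1*. With 1 library left out, the counts called higher were 0 to 3, 3 to 3, 2 to 3 and 3 to 3 in exposures 1 to 4, and those called lower 0 to 4, 5 to 6, 0 to 1 and 3 to 4. The differences among exposures had 6 to 7 members called, exposure 2 minus 1 had 2 to 4, exposure 4 against the earlier mean 0 to 2, and normoxia 1 to 5. The share of all genes called is not given for the fits without 1 library, so these ranges are not results about the members. The cause of these changes was not tested.

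Replicate numbers are shared between groups, but same-numbered libraries deviated together at a correlation over 0.1 in 2 of 12 pairs (-0.305 to 0.302), so the numbers were not taken as a pairing. In exposures 3 and 4 all same-numbered pairs had a positive correlation (0.0312 to 0.154 and 0.0537 to 0.0682). Whether these mark a weak pairing was not tested. A replicate block left 0 members called higher and 0 lower in exposure 1 (*fbf-1* at an adjusted p of 0.0553, *tra-2* at 0.0653, edgeR). It also left 0 called in exposure 4 against the earlier mean (*fem-1*, 0.112), and it ended the calls of *fem-3* in exposure 3 (0.05), *fog-1* in exposure 4 (0.0538), *tra-1* and *ftr-1* in exposure 1 (0.0501 and 0.116), and *fem-1* among exposures and in normoxia (0.0929 and 0.187). Both contrasts gained *nos-3* (0.029 and 0.0456). The block changed no other call of these genes.

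Turned signs were of values near 0 or under the germline scaling. In exposure 2, *fbf-1* had -0.0732 in one fit, and *fog-1* 0.16 and *nos-3* 0.14 with germline scaling. In exposure 3, *nos-3* had -0.0276 with upper-quartile and -0.13 with germline scaling, and *fog-2* -0.00407 with the latter. In exposure 4, *fem-1* had 0.0106 with upper-quartile scaling, 0.0129 in one fit and 0.14 with germline scaling, which also gave *fog-2* 0.00198 and *fem-3* 0.0362. For exposure 2 minus 1, *fog-1* had 0.0811 with upper-quartile scaling and 0.0458 with no filter, and germline scaling gave 0.41 for *fog-1*, 0.16 for *tra-2*, 0.28 for *fem-1*, 0.21 for *gld-1*, 0.26 for *fbf-2* and 0.31 for *nos-3*. For exposure 4 against the earlier mean, *fog-1* had -0.0347 with DESeq2, -0.000968 with upper-quartile scaling and -0.0511 with no filter. With 1 library left out, *nos-3* in exposure 3 ranged from -0.0386 to 0.0601. For exposure 2 minus 1, *fog-1* ranged from -0.13 to 0.22, *fbf-2* from -0.26 to 0.0247 and *nos-3* from -0.17 to 0.0875. For exposure 4 against the earlier mean, *fog-1* ranged from -0.12 to 0.10 and *tra-1* from -0.0223 to 0.11.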
